A study of Mus musculus with 6 samples.

Results

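The 7 mouse genes examined here encode the natriuretic peptides (Nppa, Nppb and Nppc), a protease that cleaves the Nppa precursor (Corin) and the receptors (Npr1, Npr2 and Npr3). They were found by symbol in the deposited FPKM table, through the GENCODE annotation of its Ensembl identifiers, and are 7 of 54532 identifiers. FPKM is a fragment count scaled to exon length and to library depth. Of the 7 genes, 6 were among the 14225 genes tested, which had at least 0.5 FPKM in at least 3 libraries, and each of the 6 was above that level in every library of both groups. Nppc was below that level and entered only a fit with no filter.

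The study compared hearts of mice with heart failure with preserved ejection fraction (HFpEF) and of control (Chow) mice, with 3 mice and 3 libraries in each group. All were male C57BL/6 mice, 6 to 8 weeks old at the start and studied after 12 weeks. HFpEF mice were given high-fat diet, in which fat supplied 60% of kcal, together with drinking water that held L-NAME, which blocks nitric oxide synthase, at 0.5 g/L, so diet and drug cannot be told apart in this comparison. Chow mice ate standard chow and drank plain water. The sample labels name the tissue as heart, and the study's methods name left ventricular myocardium.

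Atrial natriuretic peptide (ANP, from Nppa) and B-type natriuretic peptide (BNP, from Nppb) are hormones that cardiomyocytes release when the heart wall is stretched, and they lower blood volume and pressure. In the adult heart, Nppa is made mainly in atrial cardiomyocytes and is switched on again in stressed ventricles. Npr1 and Npr2 encode receptors that make cyclic GMP when they bind peptide, whereas Npr3 encodes a receptor without a cyclase domain that removes the peptides from the circulation. In mouse hearts the study used ANP and BNP protein as markers of hypertrophy, and reported both as raised in HFpEF, with raised N-terminal pro-BNP in plasma. It measured ANP and BNP mRNA in cultured H9c2 cells. The transcripts here show how the genes behind those markers stood in the sequenced hearts, as RNA and not protein.

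Nppb and Nppa are neighbours on mouse chromosome 4, both on the forward strand, with 13516 bases between them. The 250 bases before each gene's start in RefSeq are shown because they carry letters of motifs known to bind cardiac transcription factors, and because the transcripts of the neighbours went different ways across the libraries. Capitals mark the letters GATAA on either strand (GATA factors), AAGTG on either strand (Nkx2-5), GGTGTGA on either strand (T-box factors) and GGAATG on either strand (M-CAT, bound by TEAD factors). The sequences are from RefSeq on GRCm38.p6 and read 5′ to 3′ on the forward strand, from chr4:148000472-148000721 for Nppa and from chr4:147985650-147985899 for Nppb.
Nppa: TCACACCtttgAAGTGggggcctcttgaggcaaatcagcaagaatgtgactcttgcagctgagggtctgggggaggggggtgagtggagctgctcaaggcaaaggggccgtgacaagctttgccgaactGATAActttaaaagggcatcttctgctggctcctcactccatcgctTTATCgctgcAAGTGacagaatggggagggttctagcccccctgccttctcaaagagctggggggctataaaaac
Nppb: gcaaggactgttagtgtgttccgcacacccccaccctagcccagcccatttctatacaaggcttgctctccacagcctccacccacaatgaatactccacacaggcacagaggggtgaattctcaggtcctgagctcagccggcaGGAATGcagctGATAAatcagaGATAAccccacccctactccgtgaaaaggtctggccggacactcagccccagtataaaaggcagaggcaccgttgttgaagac
The Nppa window held 2 GATAA matches, 2 AAGTG matches and 1 match to the T-box letters. The Nppb window held 2 GATAA matches on the forward strand and 1 GGAATG match just before them. No capitals overlap another motif. Of 32851 RefSeq promoter windows of this length, 22.6% held GATAA, 40.7% AAGTG, 3.33% GGTGTGA and 12.6% GGAATG on either strand. The windows of the other 5 genes held none of the 4 sets of letters. A match describes letters only and does not show binding. The start of Nppb in GENCODE release M21 lies 112 bases upstream of the RefSeq start used here. All capitals of the Nppb window fall within those 112 bases, and so inside the gene as GENCODE places it.

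Among all genes, HFpEF replicate 3 stood apart from the other libraries. It was at 75.5 on the first principal component (42.3% of the variance), whereas the Chow libraries were between -35.8 and -31.7 and the other HFpEF libraries at 11.5 and 12.7. Recovered reads per library ran from 13076772 to 15574914 in Chow and from 13461735 to 16027084 in HFpEF. The share from mitochondrially encoded genes was 24.0% to 26.0% in Chow and 22.6%, 20.1% and 7.17% in HFpEF replicates 1 to 3. Col1a1, a fibrillar collagen gene, was at 24.9 to 27.2 FPKM in Chow and at 54.0, 87.2 and 2252 FPKM in HFpEF. Results for each tested gene are therefore given with and without HFpEF replicate 3. In such bulk tissue, fewer cells of a type and less RNA per cell cannot be told apart.

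None of the 6 tested genes passed the threshold of an adjusted p under 0.05 (limma with Benjamini-Hochberg adjustment over 14225 genes), alone or with the study's further threshold of 2 for the size of the log2 fold change. Few genes did: 0.0984% of all genes tested passed the first threshold and 0.0562% passed both. At an unadjusted p under 0.05, 2 of the 6 were higher in HFpEF (Nppb and Npr1) against 10.2% of all genes, and 0 of the 6 were lower against 13.1% of all genes. Without HFpEF replicate 3, 3 of the 6 were higher at that p (Nppa, Npr1 and Npr3, and no longer Nppb), against 10.2% of all genes. With all libraries kept, the lowest HFpEF library exceeded the highest Chow library for Nppb and Npr1, a pattern of 15.5% of all genes. The reverse held for 0 of the 6, against 19.8% of all genes. The median log2 fold change of the 6 was 0.38, beside -0.01 over all genes tested.

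**Figure D1:**
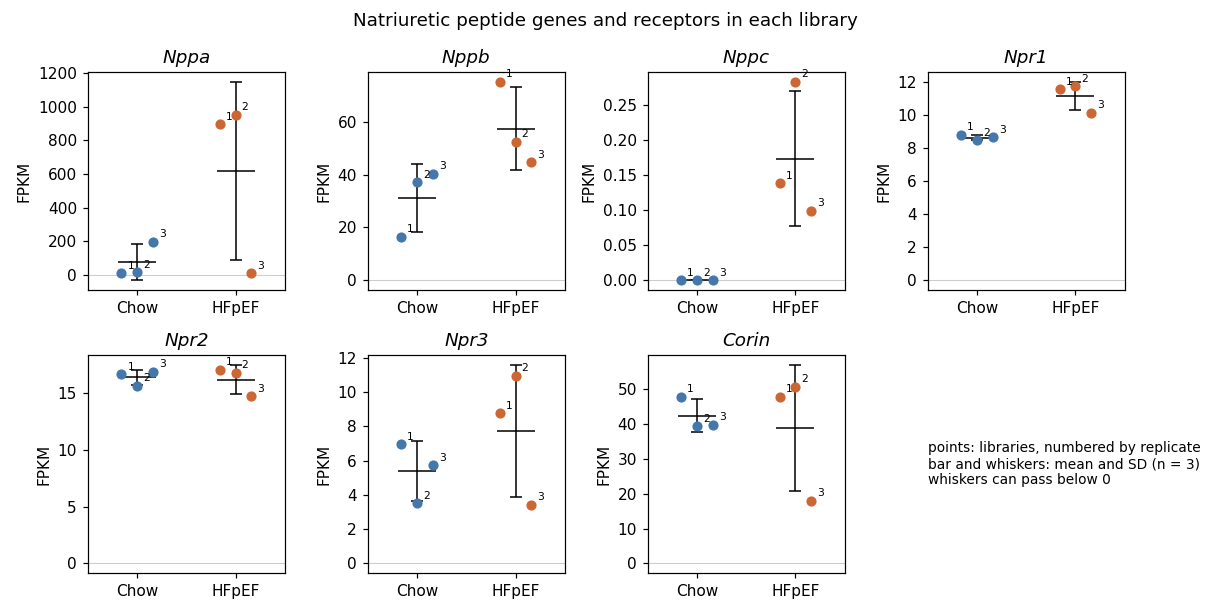
FPKM of the 7 genes in each library, with 1 panel a gene, linear axes from 0 and the replicate number beside each point; horizontal bars and whiskers are the mean and SD of 3 libraries. Only for Nppb, Npr1 and the scarcely counted Nppc do the groups not overlap, and HFpEF replicate 3 is the lowest of all 6 libraries for Nppa, Npr2, Npr3 and Corin.

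Nppa had the widest spread of the 7 genes. Its level was 9.09, 15.7 and 197 FPKM in Chow replicates 1 to 3 and 896, 952 and 8.02 FPKM in HFpEF replicates 1 to 3. HFpEF libraries 1 and 2 were far above the rest, Chow replicate 3 lay between, and HFpEF replicate 3 was the lowest of all, so the groups overlapped. The means were 73.8 ± 106 FPKM in Chow and 619 ± 530 FPKM in HFpEF (SD, n = 3). The log2 fold change was 2.64 (SE 2.07, 95% interval -2.33 to 7.61), with an adjusted p of 0.457 in limma and an exact two-sided permutation p of 0.4, where the smallest p that 3 against 3 allows is 0.1. Depth did not limit this gene, which had from 112 to 13955 recovered reads a library. Without HFpEF replicate 3 the log2 fold change was 4.92 (unadjusted p = 0.0293 and adjusted p = 0.147 in limma), and without HFpEF replicate 1 or 2 it was 1.52 or 1.48. Without Chow replicate 1 it was 1.77 and without Chow replicate 3 it was 3.98.

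Some markers of atrial cardiomyocytes, among them the 3 most abundant of the list, varied across the libraries along with Nppa. Myl7, the atrial regulatory myosin light chain, was at 3.81, 0.289 and 237 FPKM in Chow and at 975, 2073 and 8.60 FPKM in HFpEF. Myl4, the atrial essential light chain, was at 0.379, 0.239 and 50.0 FPKM in Chow and at 213, 378 and 2.58 FPKM in HFpEF. Sln, which encodes the calcium pump regulator sarcolipin, was at 0, 0 and 54.5 FPKM in Chow and at 219, 431 and 1.37 FPKM in HFpEF. As with Nppa, all 3 genes had high values in HFpEF replicates 1 and 2, a middle value in Chow replicate 3 and low values in the other 3 libraries. Nppa per Myl7, both per length, was 0.829 in Chow replicate 3 and 0.919, 0.459 and 0.933 in the HFpEF libraries, and was 2.39 and 54.2 in Chow replicates 1 and 2.

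Of the 8 atrial markers, 7 were tested and all 7 had a positive log2 fold change (median 4.90). At an unadjusted p under 0.05, 2 of them were higher, against 10.2% of all genes. These 2, Dkk3 and Nr2f2, named after their values were seen, did not follow Nppa, since HFpEF replicate 3 was above every Chow library. Dkk3 was at 0.941, 0.584 and 10.04 FPKM in Chow and at 148, 74.1 and 40.7 FPKM in HFpEF. Nr2f2 was at 2.13, 2.03 and 2.502 FPKM in Chow and at 4.28, 3.77 and 3.56 FPKM in HFpEF. The summed level of the 8 markers was 21.6 to 387 FPKM in Chow and 69.3 to 3115 FPKM in HFpEF. Bmp10, an atrial growth factor gene, was at 0 in every Chow library, at 148 FPKM in HFpEF replicate 1 and at no more than 0.0263 FPKM in the other HFpEF libraries. The part of the atrial markers in the Nppa difference was not tested.

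**Figure D2:**
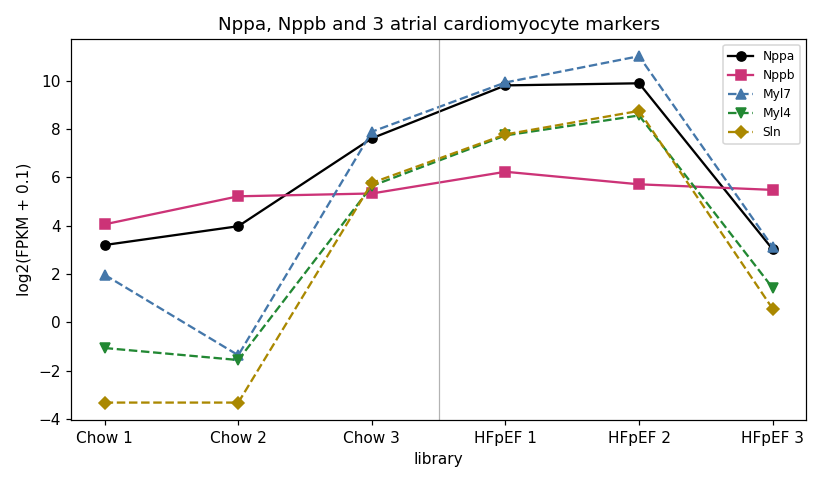
Level of Nppa, Nppb and the atrial markers Myl7, Myl4 and Sln in each library as log2(FPKM + 0.1), with a vertical line between the Chow and HFpEF libraries; lines join the libraries only to guide the eye. Nppa and the 3 markers share a peak in HFpEF replicates 1 and 2 and a low value in HFpEF replicate 3, whereas Nppb stays between 16.5 and 75.1 FPKM.

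The profile over the 6 libraries most like that of Nppa, among 12296 tested genes with a mean of at least 1 FPKM, was that of Fgf12, with a root mean square difference of 0.66 on the log2 scale after centring. Fgf12 encodes a fibroblast growth factor homologous factor that stays inside cells. It was at 0.0679, 0.0687 and 1.65 FPKM in Chow and at 4.74, 8.15 and 0.0584 FPKM in HFpEF. The next were Gm13054 (0.73) and Sbk3, a kinase gene (0.81). Gm13054 is an antisense gene whose exons share 532 of the 865 exon bases of Nppa. It had 0, 0 and 14 recovered reads in Chow and 38, 109 and 1 in HFpEF, so it followed Nppa at a far lower level. The strand setting of the counting is not given in the sources used here, and without strand the reads of a gene and of its antisense partner cannot be told apart.

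The difference in Nppb was smaller but more even across the libraries. It was at 16.5, 37.1 and 40.2 FPKM in Chow and at 75.1, 52.4 and 44.6 FPKM in HFpEF. The groups did not overlap, though HFpEF replicate 3 exceeded Chow replicate 3 only slightly and Chow replicate 1 was well below the other Chow libraries. The means were 31.3 ± 12.9 and 57.4 ± 15.8 FPKM (SD, n = 3), a ratio of 1.83. The log2 fold change was 0.94 (SE 0.37, 95% interval 0.04 to 1.83), with an unadjusted p of 0.0423 and an adjusted p of 0.202 in limma and an exact permutation p of 0.1, the smallest possible. Without Chow replicate 1 the log2 fold change was 0.53 (unadjusted p = 0.0792 and adjusted p = 0.367 in limma), and without HFpEF replicate 3 it was 1.10 (0.0576 and 0.215). The unadjusted p was also above 0.05 without HFpEF replicate 1 (0.124) or 2 (0.0731).

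The balance of the 2 cardiac peptide transcripts differed by library rather than by group. Nppa per Nppb, both per length, was 0.550, 0.422 and 4.89 in Chow and 11.9, 18.2 and 0.180 in HFpEF. Nppb was thus the more abundant transcript in Chow replicates 1 and 2 and HFpEF replicate 3, which were the libraries with the lowest Myl4 and Sln. The genes with profiles most like that of Nppb were Hyi, Gm9833 and Eno1b, with root mean square differences of 0.33 to 0.36 on the log2 scale.

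Nppc, which encodes the C-type peptide that binds the Npr2 receptor, was barely counted. It had 0 recovered reads in each of the 3 Chow libraries and 2, 5 and 2 reads in the HFpEF libraries, or 0.139, 0.283 and 0.0994 FPKM. A count of 0 allows up to 3 reads a library, or 0.202 to 0.245 FPKM in the Chow libraries, and 2 of the 3 HFpEF libraries were also under 3 reads, so no fold is given. These limits cover counting error only. In the fit with no filter on low values, of 27437 genes, Nppc had an unadjusted p of 0.00840 and an adjusted p of 0.216 in limma, and 3 of the 7 genes (Nppb, Nppc and Npr1) were higher at the unadjusted p, against 7.05% of all genes. The groups did not overlap, but the values rest on 9 reads in all.

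Corin, the membrane protease of cardiomyocytes that cleaves pro-ANP to its active form, was at 47.7, 39.3 and 39.7 FPKM in Chow and at 47.7, 50.6 and 17.98 FPKM in HFpEF. HFpEF replicate 1 was at the top of the Chow range, HFpEF replicate 2 was above it and HFpEF replicate 3 was below it, so the groups overlapped. The means were 42.2 ± 4.74 and 38.7 ± 18.04 FPKM (SD, n = 3). Its log2 fold change was -0.26 (SE 0.39, 95% interval -1.20 to 0.68), with an adjusted p of 0.704 in limma and an exact permutation p of 0.9. Its sign turned without HFpEF replicate 3, when it was 0.22 (adjusted p = 0.243 in limma).

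Summed over their list, ventricular cardiomyocyte markers were lower in every HFpEF library and lowest in HFpEF replicate 3. Corin was low in HFpEF replicate 3 only. Their summed level was 14463 to 16016 FPKM in Chow and 10221, 10888 and 6992 FPKM in HFpEF. All 8 were tested and 0 had a positive log2 fold change (median -0.68). At an unadjusted p under 0.05, 5 were lower, against 13.1% of all genes. For 7, every HFpEF value was below every Chow value, a pattern of 19.8% of all genes. None of the 8 was at 0 in any library. Myl3, the ventricular essential light chain, was at 2184, 2460 and 2493 FPKM in Chow and at 1361, 1280 and 999.5 FPKM in HFpEF. Relative to the mean of the 8 markers on the log2 scale, Corin was at -3.36, -3.68 and -3.67 in Chow and at -2.95, -2.73 and -3.73 in HFpEF, so that HFpEF replicate 3 lay just below the Chow range while the other HFpEF libraries lay above it. On that scale the group difference was 0.43 (exact permutation p = 0.4). The part of these markers in the Corin level was not tested. The genes with profiles most like that of Corin were Rbfox1, Kcnq1 and Carns1, each with its lowest value in HFpEF replicate 3 and root mean square differences of 0.08 to 0.10.

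Npr1, the guanylyl cyclase receptor for ANP and BNP, had the most even difference of the receptors. It was at 8.79, 8.46 and 8.64 FPKM in Chow and at 11.6, 11.7 and 10.2 FPKM in HFpEF. The Chow values were close together and every HFpEF library was above them. The means were 8.63 ± 0.166 and 11.1 ± 0.865 FPKM (SD, n = 3), a ratio of 1.29. The log2 fold change was 0.36 (SE 0.10, 95% interval 0.13 to 0.59), with an unadjusted p of 0.00860 and an adjusted p of 0.124 in limma and an exact permutation p of 0.1. When HFpEF replicate 3 was left out, the adjusted p was 0.0261 in limma (log2 fold change 0.43), in a fit where 8.36% of all genes tested passed the same threshold.

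Npr2, the receptor for C-type peptide, had the smallest difference of the 6 tested genes. It was at 16.7, 15.7 and 16.9 FPKM in Chow and at 17.1, 16.8 and 14.7 FPKM in HFpEF, and the groups overlapped. The log2 fold change was -0.02 (SE 0.10, 95% interval -0.26 to 0.22), with an adjusted p of 0.910 in limma and an exact permutation p of 0.9, and its sign turned under some scalings and without HFpEF replicate 3 (0.04). Npr2 per Npr1, both per length, was 1.89, 1.85 and 1.96 in Chow and 1.48, 1.43 and 1.45 in HFpEF, so the HFpEF values were all below the Chow values. This ratio was not tested. The antisense gene Gm12473, at 5.45 to 9.71 FPKM in all libraries, shares 266 of the 4667 exon bases of Npr2.

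Npr3, the clearance receptor, was at 6.94, 3.51 and 5.72 FPKM in Chow and at 8.77, 10.9 and 3.44 FPKM in HFpEF. HFpEF replicates 1 and 2 were above every Chow library, HFpEF replicate 3 was just below the lowest, and the groups overlapped. The means were 5.39 ± 1.74 and 7.71 ± 3.86 FPKM (SD, n = 3). The log2 fold change was 0.41 (SE 0.46, 95% interval -0.70 to 1.51), with an adjusted p of 0.609 in limma and an exact permutation p of 0.6. Without HFpEF replicate 3 it was 0.90 (unadjusted p = 0.0268 and adjusted p = 0.140 in limma), and without HFpEF replicate 2 it was 0.08.

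**Figure D3:**
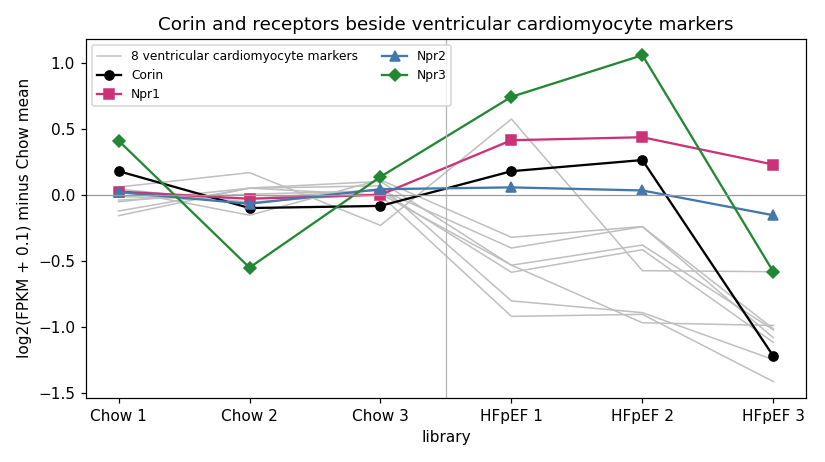
Level of Corin, Npr1, Npr2, Npr3 and 8 ventricular cardiomyocyte markers (grey) in each library, as log2(FPKM + 0.1) minus the mean of the Chow libraries. Npr1 lies above 0 in all 3 HFpEF libraries, whereas Corin, Npr2 and Npr3 are below 0 in HFpEF replicate 3, where the ventricular markers are also low.

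The profiles most like that of Npr1 were those of Por, Pym1 and Nup155 (root mean square differences of 0.04 to 0.05 on the log2 scale). Those most like Npr2 were Tm9sf4, Extl3 and Ptp4a2 (0.01 to 0.02), and those most like Npr3 were Sort1, Panx2 and Sox10 (0.19 to 0.24). Sort1, which encodes the sorting receptor sortilin, was at 11.6, 9.07 and 12.1 FPKM in Chow and at 20.3, 24.8 and 7.29 FPKM in HFpEF, highest in HFpEF replicates 1 and 2 and lowest in HFpEF replicate 3, as Npr3 was.

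Endothelial and endocardial cells also express Npr1 and Npr3, so their markers are given beside the receptors. Of 7 endothelial markers, all tested, 4 were lower at an unadjusted p under 0.05 and 0 were higher, and their summed level was 252 to 277 FPKM in Chow and 199 to 205 FPKM in HFpEF. Of 5 endocardial markers, all tested, 3 were higher and 0 lower at that threshold, and their summed level was 25.7 to 44.3 FPKM in Chow and 59.3 to 74.6 FPKM in HFpEF. Of 7 fibroblast markers, all tested, 5 were higher and 0 lower, with sums of 182 to 216 FPKM in Chow and 363, 375 and 3712 FPKM in HFpEF. Beside these counts, 10.2% of all genes tested were higher and 13.1% lower at that unadjusted p. None of the 3 lists had a gene with an adjusted p under 0.05 in limma. The part of these cell types in the receptor values was not tested.

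**Figure D4:**
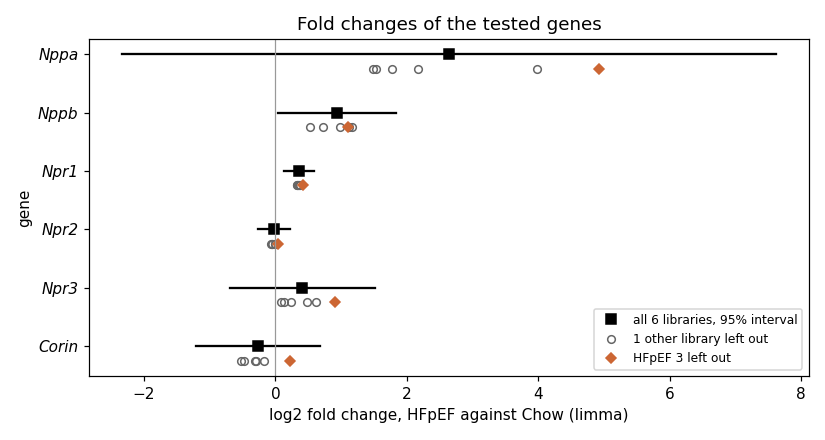
log2 fold change (HFpEF against Chow, limma) of the 6 tested genes with the 95% interval (black), and the same value with each single library left out (open circles, or an orange diamond for HFpEF replicate 3). The interval of Npr1 is narrow and above 0 and that of Nppa runs from -2.33 to 7.61, and leaving out HFpEF replicate 3 gives the highest value of Nppa, Npr1, Npr2, Npr3 and Corin.

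In order of mean level per length, the Chow hearts had Nppa (73.8 FPKM), Corin (42.2), Nppb (31.3), Npr2 (16.4), Npr1 (8.63), Npr3 (5.39) and Nppc. The first place of Nppa rested on Chow replicate 3, at 197 FPKM. In Chow replicates 1 and 2, at 9.09 and 15.7 FPKM, Nppa was below Corin, Nppb and Npr2, though hardly below Npr2 in replicate 2. The ranges of Nppa and Corin, of Corin and Nppb, and of Nppb and Npr2 overlapped, so the order of these neighbours was not fixed, whereas Npr2, Npr1 and Npr3 did not overlap. In HFpEF hearts Nppb stood above Corin in the means, at 57.4 and 38.7 FPKM, with overlapping ranges. Npr2 (16.2 FPKM) was still above Npr1 (11.1) in every library, and the range of Npr3 (3.44 to 10.9 FPKM) reached into that of Npr1.

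The other genes of the pathway were taken from 6 lists with 69 genes, of which 56 were tested, and none had an adjusted p under 0.05 in limma. Without HFpEF replicate 3, when 8.36% of all genes tested passed, 8 of the 56 did, with adjusted p from 0.00858 (Tbx5) to 0.0471 (Plod1): Gucy1a1, Pde3b, Mrvi1 and Tbx5 were higher and Actc1, Pln, Plod1 and Mfn2 lower. Mrvi1, a substrate of cyclic GMP-dependent kinase, is named only for this call. With any other single library left out, none of the 56 passed. Among genes of peptide processing and clearance, 5 of 6 were tested, with 0 higher and 1 lower at an unadjusted p under 0.05 (median log2 fold change -0.15). At that p, 10.2% of all genes tested were higher and 13.1% lower, the shares for this list and the lists below. Pcsk6, the convertase that activates corin, was at 22.9, 24.8 and 21.4 FPKM in Chow and at 21.3, 18.2 and 17.2 FPKM in HFpEF (log2 fold change -0.29, adjusted p = 0.209). The log2 fold change of Furin, which cleaves pro-BNP, was -0.15 (adjusted p = 0.357), that of Ide, insulin-degrading enzyme, was -0.26 (0.290) and that of Dpp4, a dipeptidyl peptidase, was 0.51 (0.461), all in limma.

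The soluble guanylyl cyclase, which makes cyclic GMP in answer to nitric oxide, had the lowest p among these lists. Gucy1a1, its alpha subunit, was at 6.05, 4.98 and 7.001 FPKM in Chow and at 12.8, 15.0 and 13.5 FPKM in HFpEF. The HFpEF libraries lay close together and well above the Chow libraries. Its log2 fold change was 1.19 (SE 0.15), with an unadjusted p of 0.000121 and an adjusted p of 0.0597 in limma. With single libraries left out, its adjusted p ran from 0.0168 (without HFpEF replicate 3) to 0.246 in limma. Gucy1b1, the beta subunit, overlapped between groups (log2 fold change 0.47, adjusted p = 0.302 in limma). The other 7 cyclase genes on this list were not tested.

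Of 20 cyclic GMP effectors and phosphodiesterases, 15 were tested, with 4 higher and 1 lower at an unadjusted p under 0.05 (median log2 fold change 0.35). The most abundant were Vasp, a substrate of cyclic GMP-dependent kinase (0.35, adjusted p = 0.318), Rgs2, a regulator of G protein signalling (-0.48, 0.239), Pde3a, a cyclic GMP-inhibited phosphodiesterase (-0.11, 0.633), and Ppp1r12a, a subunit of myosin phosphatase (0.47, 0.171), with log2 fold changes and adjusted p from limma. Pde3b, named after its values were seen, had the lowest p of this list. It was at 0.532, 0.514 and 0.871 FPKM in Chow and at 1.94, 2.82 and 2.37 FPKM in HFpEF. Its log2 fold change was 1.76 (SE 0.26, adjusted p = 0.0757 in limma). With single libraries left out, its adjusted p ran from 0.0272 (without HFpEF replicate 3) to 0.340 in limma. Pde3b is also known as the phosphodiesterase of adipocytes, and adipocyte markers differed between the groups. Of 7 such markers 5 were tested, with 4 higher and 1 lower at an unadjusted p under 0.05, against 10.2% and 13.1% of all genes. In limma, 3 of them had an adjusted p under 0.05, against 0.0984% of all genes. All 4 higher markers were under 0.5 FPKM in every Chow library and passed the filter only through the HFpEF libraries. They could thus come out only as higher, and the shares of all genes are not a fair measure for them. Fabp4, by far the most abundant marker of the list, which capillary endothelium also expresses, was the lower one. It was at 84.3, 94.8 and 92.9 FPKM in Chow and at 60.5, 64.0 and 69.8 FPKM in HFpEF (log2 fold change -0.49, unadjusted p = 0.00474 and adjusted p = 0.118 in limma). Cfd, Cidec and Adipoq were at 0 in every Chow library and at 22.9 to 37.8, 2.29 to 9.35 and 1.91 to 6.69 FPKM in HFpEF. The summed level of the list was 84.3 to 94.8 FPKM in Chow, nearly all of it Fabp4, and 98.6 to 124 FPKM in HFpEF. The part of adipocytes in the Pde3b value was not tested.

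**Figure D5:**
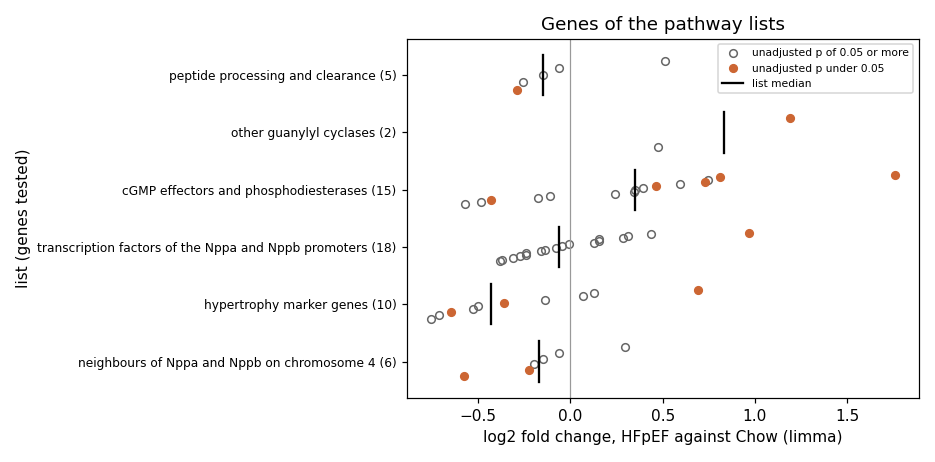
log2 fold change (HFpEF against Chow, limma) of each tested gene of the 6 pathway lists, with filled points at an unadjusted p under 0.05 and a vertical bar at the list median. The points furthest right are Pde3b (1.76) and Gucy1a1 (1.19), and the medians run from -0.43 for the hypertrophy markers to 0.83 for the other guanylyl cyclases.

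Transcription factors known to act on the Nppa and Nppb promoters were 18 genes, all tested, with 1 higher and 0 lower at an unadjusted p under 0.05 (median log2 fold change -0.06). The most abundant were Nkx2-5 (-0.37, adjusted p = 0.410), Gata4 (-0.38, 0.334), Srf (-0.01, 0.973) and Mef2d (-0.31, 0.284), with log2 fold changes and adjusted p from limma. Tbx5, a T-box factor of the heart that was named after its values were seen, varied more by library. It was at 6.73, 6.38 and 6.85 FPKM in Chow and at 15.9, 19.1 and 1.83 FPKM in HFpEF, with the same HFpEF libraries high and low as for Nppa but level values in Chow. Its log2 fold change was 0.31 (adjusted p = 0.841 in limma), and 1.37 without HFpEF replicate 3 (adjusted p = 0.00858).

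Of 10 further genes used as markers of cardiac hypertrophy, all tested, 1 was higher and 2 were lower at an unadjusted p under 0.05 (median log2 fold change -0.43, and 0.22 after quantile normalization). The most abundant were the sarcomere genes Actc1 (-0.65, adjusted p = 0.197) and Myh6 (-0.53, 0.282) and the calcium handling genes Atp2a2 (-0.50, 0.270) and Pln (-0.71, 0.220), with log2 fold changes and adjusted p from limma. All 4 were lowest in HFpEF replicate 3, and Actc1 and Myh6 are also on the ventricular marker list. The 1 higher gene was Fhl1, named after its values were seen. It had a log2 fold change of 0.69 (unadjusted p = 0.0182 and adjusted p = 0.155 in limma). The list was not split by the direction its genes take in hypertrophy, so its median does not give the direction of hypertrophy. Myh7, the slow myosin heavy chain that often accompanies Nppa and Nppb in hypertrophy and was named after its values were seen, was at 23.1, 24.0 and 29.99 FPKM in Chow and at 21.9, 28.5 and 35.2 FPKM in HFpEF. The groups overlapped, and the log2 fold change was 0.13 (adjusted p = 0.708 in limma).

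The 6 genes next to Nppa and Nppb on chromosome 4 were all tested (median log2 fold change -0.17). At an unadjusted p under 0.05, 0 were higher and 2 lower, against 10.2% and 13.1% of all genes. Mfn2, a mitochondrial fusion gene, was at 186, 176 and 174 FPKM in Chow and at 151, 135 and 84.9 FPKM in HFpEF (log2 fold change -0.57, adjusted p = 0.200 in limma). Agtrap, which encodes a protein that binds the angiotensin receptor, was at 13.2, 14.0 and 14.4 FPKM in Chow and at 11.8, 11.8 and 12.1 FPKM in HFpEF (-0.22, 0.201). Both lay lower in every HFpEF library, a pattern of 19.8% of all genes and the opposite of their neighbour Nppb. Plod1 (-0.20, 0.496) and 2510039O18Rik (-0.06, 0.825) overlapped between groups.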

How the data were processed

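Heart RNA of 3 Chow and 3 HFpEF mice was sequenced (1 library a mouse). The authors used HISAT2 for alignment and featureCounts for counting, and deposited FPKM per gene. The submitters' processing notes name GRCm38 (mm10), and the annotation release is not given in the sources used here. Of 54532 identifiers, 54495 are in GENCODE M21, whose gene symbols, coordinates and exon lengths were used. FPKM times exon length gave whole reads for 96.1% to 96.2% of values above 0 in each library, at a relative tolerance of 1e-06. The read totals those steps imply were 0.897 to 0.914 of the summed reads in Chow and 1.03 to 1.27 in HFpEF, so the deposited FPKM carry a scaling between libraries that the sources do not state.

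FPKM was divided by median-of-ratios factors (1.00 to 1.01), 0.1 was added, and log2 values of genes with at least 0.5 FPKM in at least 3 libraries were fitted with limma 3.58.1 in R 4.3.3 (trend and robust options), with Benjamini-Hochberg adjustment. Fold changes are on that scale. Single genes were also compared by a two-sided exact permutation test. The fit was also run on simulated reads with the same spread for every gene and no outlying library. That run therefore does not cover a library like HFpEF replicate 3. Python 3.11.15, numpy 2.4.6, pandas 2.3.3 and matplotlib 3.10.9 were used.

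The genes, lists and tests were chosen with earlier results of these data known. Named genes were the 7 genes, the most abundant genes of each pathway list (at most 4) and of each marker list printed (at most 3), and for each tested gene the 3 most similar profiles, apart from those marked as named later and Bmp10, Adipoq, Mrvi1 and Gm12473, which were also named after their values were seen. The other marker lists were for smooth muscle, liver, epicardium, cartilage and valve, Schwann cells, macrophages, red blood cells and immediate early genes. In that order they had 0, 2, 3, 3, 2, 2, 0 and 1 genes higher at an unadjusted p under 0.05, against 10.2% of all genes. Smooth muscle had 1 lower, against 13.1% of all genes. In any marker list, the higher genes can include some under 0.5 FPKM in every Chow library. Such genes passed the filter only through HFpEF libraries and could come out only as higher.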

Additional observations from a re-analysis of the deposited data

How the results depend on the processing

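Nppa, Nppb, Npr1 and Npr3 kept a positive log2 fold change under every alternative tried that could change it. Those were the deposited scaling, quantile normalization, scaling to the summed FPKM without mitochondrially encoded genes and pseudocounts of 1 and 0.01. They also included voom on recovered reads, values relative to ventricular markers and each library left out. Values relative to ventricular markers, and the scaling without mitochondrially encoded genes, raised each of these genes by nearly the same amount. Neither could turn a positive fold change negative, so neither tests a positive sign. Other filters, limma without trend and robust options, the replicate block and the exact permutation test were tried as well. These settings leave the fold change of a gene as it is and can alter only its p, so they do not test its sign. Over the fits across all genes the lowest adjusted p was 0.147 for Nppa, 0.110 for Nppb, 0.140 for Npr2, 0.140 for Npr3 and 0.243 for Corin. Scaling without mitochondrial genes shifted the median of all genes by 0.25, and raised Npr1 to 0.62 (adjusted p = 0.0465, where 0.513% of all genes passed), which is 0.38 above that median against 0.37 in the main analysis. Npr2 turned positive with quantile normalization (0.064), that scaling (0.23, or -0.01 relative to the shifted median), voom (0.0012), relative to ventricular markers (0.67) and without HFpEF replicate 3. Corin turned positive relative to ventricular markers (0.43) and without HFpEF replicate 3. Relative to ventricular markers, Nppb was at 1.63, Npr1 at 1.05, Npr3 at 1.10 and Npr2 also at 0.67 (exact permutation p = 0.1 each). Nppa was at 3.33 (exact permutation p = 0.2). The ventricular markers were themselves lower in HFpEF, which raised every value on this scale, so these p are not particular to the genes named. The causes were not tested.

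With each library left out, log2 fold changes ran from 1.48 to 4.92 for Nppa, 0.53 to 1.17 for Nppb, 0.32 to 0.43 for Npr1, -0.060 to 0.044 for Npr2, 0.08 to 0.90 for Npr3 and -0.52 to 0.22 for Corin. Of the 6 genes, 0 to 1 then passed the adjusted p and 1 to 3 the unadjusted p. Of all genes, 2 to 1189 passed the adjusted p and 2 to 59 also the fold threshold, with the highest counts without HFpEF replicate 3. At the unadjusted p, 896 to 1567 were higher and 1015 to 2132 lower, and of the pathway genes 2 to 11 were higher and 0 to 9 lower. The median of the hypertrophy list ran from -0.53 to -0.26.

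Among the 6 genes, 1 passed the adjusted p after scaling without mitochondrial genes. At the unadjusted p, 1 was higher without trend and robust options, as were 1446 of all 14225 genes. With no filter, 3 of the 7 genes were, Nppc included, against 7.05% of all genes. Of all genes, the counts past the adjusted p, and past it with the fold threshold, were 73 and 21 with that scaling, 3 and 2 with a pseudocount of 1, 5 and 3 with 0.01, 32 and 19 without trend and robust options and 0 and 0 with voom, and 5 passed both at an FPKM minimum of 1. That scaling gave 3672 genes higher and 605 lower at the unadjusted p, and 16 pathway genes higher and 0 lower. Pathway genes lower numbered 1 with quantile normalization (1672 of all genes) and 3 without trend and robust options (1655 of all genes). List medians with that scaling were 0.11 for peptide processing, 1.09 for other cyclases, 0.61 for cyclic GMP effectors, -0.18 for hypertrophy markers and 0.079 for the neighbours. The cyclase median was 0.22 with no filter, and that of the hypertrophy list 0.22 with quantile normalization.

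The replicate numbers did not pair the libraries: deviations of same-numbered libraries from their group means correlated at -0.04, -0.07 and -0.06. With the replicate block, 1 of the 6 genes was higher at the unadjusted p, as were 1304 of all 14225 genes. At that p, 2 pathway genes were lower, beside 1701 of all genes. In that fit, 2 of all genes passed the adjusted p and 2 also the fold threshold. Depth limits Nppc alone among the 7 genes.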
